A study of Mus musculus with 12 samples.

Results

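The gastrocnemius and the quadriceps of the same flown mice were compared with each other. The gastrocnemius is a calf muscle and the quadriceps a thigh muscle. The comparison used the 6 flight libraries of a series of 12, chosen by their labels, with 3 gastrocnemius and 3 quadriceps libraries that came in pairs from mice M11, M12 and M20. The mice were female, 30 weeks old at the start, and were housed for 9 weeks on the International Space Station. All were injected with saline (PBS) and served as the untreated arm of a therapy study, and the muscles were dissected from the left hind limb of carcasses that had been frozen and thawed. The 6 ground libraries, from the same 2 muscles of the female PBS-injected mice M02, M03 and M08 kept for as long on Earth at the same age, were used to see whether a difference between the muscles was also present without flight. The strain is C57BL/6 in the sample labels but BALB/c in the methods, and no transgene or gene deletion is given. Each library came from a whole muscle piece, so fewer cells of a type and less RNA per cell cannot be told apart.

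Hind limb muscles are built from fibre types that differ in myosin isoform, calcium handling and metabolism. Slow fibres rely on oxidative metabolism and slow myosin, whereas fast fibres use fast myosin isoforms with more glycolytic metabolism. Muscles also differ in how the transcripts of their giant sarcomere proteins are spliced. Titin, the molecular spring that spans from the Z-disc to the M-line, has many short exons in its elastic I-band part that are included to a different degree in different muscles.

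Expression was read as TPM, transcript abundance that is by definition scaled to a common total per library, and tested on log2(TPM + 1) within mice. The genes listed did not reach the same total. They summed to 937534 to 946314 TPM in the flight gastrocnemius libraries and 964792 to 966638 TPM in the flight quadriceps libraries. All log2 differences below are gastrocnemius minus quadriceps on that scale, so positive values are higher in the gastrocnemius, and they understate the difference for genes of low TPM. A gene was called at a Benjamini-Hochberg adjusted p under 0.05 and a difference of more than 1.5-fold. TPM carries no counting depth. Of the 36008 genes listed, 10481 exceeded 5 TPM in 1 or more of the 12 libraries. The skeletal muscle genes set as markers of the tissue were all tested (12 of 12), and Acta1, the skeletal actin, averaged 17117 TPM in the flight gastrocnemius and 17929 in the flight quadriceps. Of the 12, 10 had a negative log2 difference, against 66.7% of all genes tested, and 1 was called. Their summed TPM ran from 102100 to 104600 in the flight gastrocnemius and from 130100 to 136400 in the flight quadriceps. The 10 most abundant genes held 32.6% to 34.8% of the TPM of a flight gastrocnemius library and 26.5% to 28.9% of a flight quadriceps library. Over all genes tested, the median log2 difference was -0.11 in flight and -0.12 on the ground, and differences are best read against that shift.

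In flight, 168 of 10481 genes (1.60%) were called between the muscles by limma with mouse as a block. Of these, 45 (0.429% of the genes tested) were higher in the gastrocnemius and 123 (1.17%) higher in the quadriceps. Outside predicted genes and pseudogenes, the largest differences toward the gastrocnemius were in genes of myelin and Schwann cells, the glia that wrap peripheral nerve. Those higher in the quadriceps included 4 of the 30 genes listed for fast fibres, regulators of calcium uptake, myostatin, 3 neutrophil genes and many ribosomal proteins. Every called gene moved the same way in 3 of 3 mice, and in 164 of 168 the 3 libraries of 1 muscle lay wholly above the 3 of the other, against 30.4% of all genes tested. Calling by a small p nearly fixes that share, so it adds no support of its own. The count depends on the scaling and on the mice. After rescaling by median ratios 54 genes were called, 25 higher and 29 lower in the gastrocnemius, so that the share higher in the gastrocnemius went from 26.8% to 46.3%. With 1 mouse left out the test called 1 gene without M11, 12 without M12 and 48 without M20.

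The nerve and Schwann cell markers had the most calls among the 20 lists of markers and pathways. Of the 17 genes listed, 12 passed the TPM filter, and 7 of those were called higher in the gastrocnemius and 0 lower. Over all genes tested 0.429% were called higher. The median log2 difference of the 12 was 1.35 against -0.11 over all genes. Mbp, myelin basic protein, read 47.7, 87.2 and 78.3 TPM in the gastrocnemius of M11, M12 and M20 and 14.1, 11.6 and 18.3 TPM in the quadriceps. The lowest gastrocnemius value was above the highest quadriceps value, and the log2 difference was 2.18 (SE 0.21, adjusted p = 0.0326, limma).

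Pmp22, a protein of compact peripheral myelin, averaged 56.7 ± 16.1 TPM (SD, n = 3) in the gastrocnemius and 17.3 ± 3.21 TPM in the quadriceps. Prx, the Schwann cell protein periaxin, read 10.99, 18.2 and 17.6 TPM against 3.27, 3.67 and 4.65 TPM. Its partner Drp2 averaged 11.6 ± 3.61 and 3.36 ± 0.674 TPM. Mal averaged 6.11 ± 1.55 and 1.72 ± 0.166 TPM. For each of these the groups did not overlap, and M11 was the lowest of the 3 gastrocnemius libraries. Cnp, another myelin gene, was not called and had a log2 difference of 0.59. The summed TPM of the 12 markers ran from 212.4 to 374.7 in the flight gastrocnemius and from 81.4 to 113.9 in the flight quadriceps. On the ground it ran from 179.6 to 263.2 and from 74.2 to 112.3, and the median log2 difference there was 1.00. On the ground 6 of the 12 were called higher in the gastrocnemius, against 54 of the 10481 genes tested. Whether more nerve was present in the gastrocnemius pieces was not tested.

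Leaving out genes whose symbols mark them as predicted or as pseudogenes, the 10 largest differences toward the gastrocnemius included Mbp, Prx, Bcas1, Pmp22, Plekha4, Drp2, Cadm4, BC002163 and Mal. Bcas1, a gene of myelinating glia, had a log2 difference of 1.70, and Cadm4, an adhesion molecule between axon and Schwann cell, one of 1.42. Plekha4 read 12.6, 22.4 and 20.7 TPM in the gastrocnemius and 3.93, 5.41 and 8.51 TPM in the quadriceps. BC002163 is annotated as a processed pseudogene and shares 81.0% of its 31-base words with Ndufs5, so its TPM is uncertain. Of the 168 called genes, 28 were predicted genes or pseudogenes by symbol, 14 in each direction, with log2 differences from -4.52 to 6.21.

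**Figure D1:**
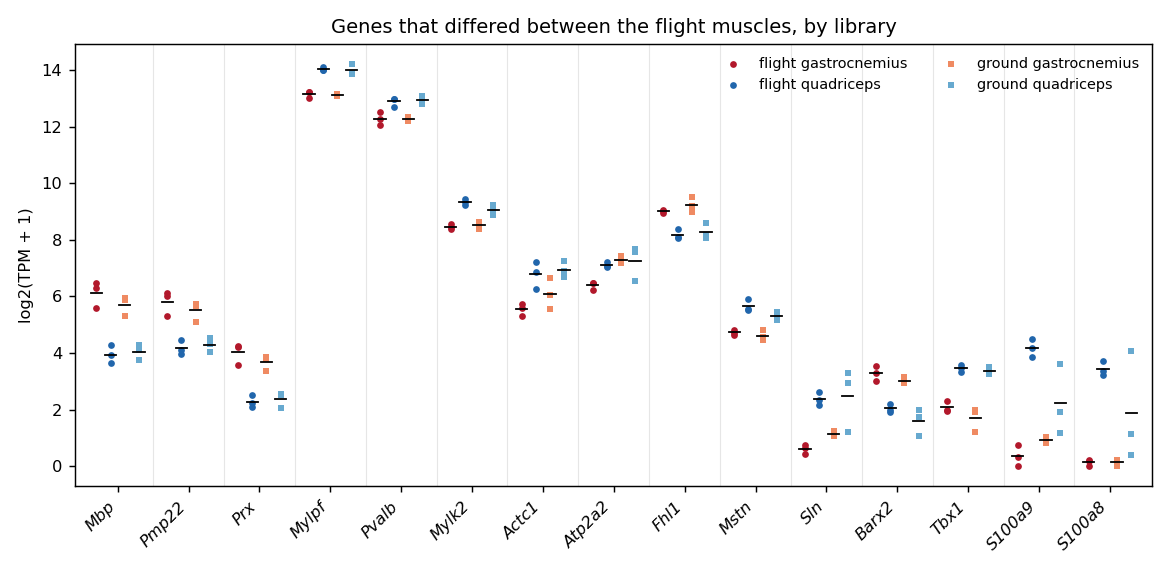
log2(TPM + 1) of 15 genes called in flight, with a point for each library, colours and shapes for the 4 groups, and a black bar at each mean of 3. The 3 flight gastrocnemius points of Mbp, Pmp22, Prx, Fhl1 and Barx2 lie above the flight quadriceps points, and those of the other 10 genes lie below them.

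Toward the quadriceps, the largest differences, with the same symbols left out, were those of S100a9 and S100a8, the paired calcium-binding proteins that neutrophils carry in bulk. S100a9 (chromosome 3, 90692632 to 90695721, GRCm38) read 0.664, 0 and 0.254 TPM in the gastrocnemius and 17.2, 21.4 and 13.7 TPM in the quadriceps, a log2 difference of -3.83 (SE 0.24, adjusted p = 0.0141, limma). S100a8 read 0.141, 0.151 and 0 TPM against 9.33, 12.2 and 8.22 TPM, a log2 difference of -3.30 (adjusted p = 0.00987, limma). Ltf, the neutrophil granule protein lactoferrin, read 0, 0.0244 and 0.114 TPM against 2.92, 6.10 and 2.12 TPM, with an adjusted p of 0.0497 by limma. All 3 flown quadriceps were high and all 3 flown gastrocnemii near 0. On the ground S100a9 read 1.03, 0.986 and 0.747 TPM in the gastrocnemius and 1.23, 2.79 and 11.3 TPM in the quadriceps. There S100a8 read 0.157, 0.149 and 0 TPM against 0.326, 1.21 and 15.7 TPM. The ground quadriceps values were spread, and neither gene was called there. For both genes the ground groups also did not overlap, with the gastrocnemius lower.

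Of 13 listed blood cell markers 7 were tested, and S100a8 and S100a9 were the 2 called, against 1.60% of all genes tested. The red cell globin gene Hba-a2 read 147, 251 and 227 TPM in the flight gastrocnemius and 182, 197 and 383 in the quadriceps, with overlapping groups, and Hbb-bs had a log2 difference of -0.61 (adjusted p = 0.105, limma). Among macrophage markers 0 of 7 tested were called by limma. An unadjusted limma p under 0.05 was found for 3, against 3020 of the 10481 genes tested. The macrophage gene Lyz2 averaged 19.6 ± 5.84 and 25.7 ± 6.48 TPM. Hba-a2 shares 92.6% of its 31-base words with Hba-a1, Hbb-bs 54.4% with Hbb-bt and Lyz2 32.8% with Lyz1, so their TPM are uncertain.

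The rest of the 10 largest differences toward the quadriceps were Ulk4, Mup22, Sln, Rpl6l, Cyp4f39, mt-Nd3 and Katnal2. Ulk4, a gene of the Unc-51-like kinase family, averaged 2.10 ± 2.08 TPM in the gastrocnemius and 12.9 ± 2.68 TPM in the quadriceps, and its ground log2 difference was -2.31. Cyp4f39 averaged 1.69 ± 0.626 and 6.87 ± 0.789 TPM, with -1.57 in flight and -1.55 on the ground. Katnal2, related to the microtubule-severing katanins, averaged 2.18 ± 0.198 and 7.37 ± 0.435 TPM. mt-Nd3, a complex I subunit encoded by the mitochondrial genome, averaged 2531 and 6982 TPM. Its transcript shares 98.1% of its 31-base words with nuclear pseudogenes, all of the words of Mup22 occur in other urinary protein genes, and Rpl6l, annotated as a processed pseudogene, shares 84.4% with Rpl6, so these 3 values are uncertain. For Rpl6l the groups also overlapped, and its log2 difference was -1.58 in flight and 0.52 on the ground.

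Among fast fibre genes, all 30 listed genes were tested, 4 were called lower in the gastrocnemius and 0 higher, and the median log2 difference was -0.44. Over all genes tested 1.17% were called lower. The values of 23 of the 30 were lower in the gastrocnemius in every mouse, against 4213 of the 10481 genes tested. Mylpf, the regulatory light chain of fast myosin, read 9604, 8235 and 9513 TPM in the gastrocnemius and 17905, 16417 and 16548 TPM in the quadriceps, a log2 difference of -0.90 (SE 0.08, adjusted p = 0.0326, limma). Mylk2, the skeletal kinase that phosphorylates that light chain, averaged 352 ± 20.4 and 645 ± 46.0 TPM. Pvalb, the calcium buffer of fast fibres, averaged 5031 ± 755 and 7660 ± 840 TPM. Actc1, the cardiac actin gene, which the list also held and which is counted among the 4, averaged 46.0 ± 6.97 and 113 ± 36.8 TPM. Neither Myh4, the myosin of the fastest fibres, nor the fast troponin Tnnt3 was called, and their log2 differences were -0.53 and -0.49. The summed TPM of the 30 genes was 132000 to 139900 in the flight gastrocnemius and 179300 to 190100 in the flight quadriceps, without overlap.

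Slow fibre genes gave no common direction in flight. Of 26 tested, 1 was called higher and 1 lower in the gastrocnemius, against 1.60% of all genes called. The median was -0.11, the same as over all genes. Fhl1, a LIM protein abundant in slow fibres, read 535, 517 and 489 TPM in the gastrocnemius against 333, 275 and 266 TPM, a log2 difference of 0.82 (SE 0.08, adjusted p = 0.0326, limma). Atp2a2, the calcium pump of slow and cardiac muscle, went the other way and read 88.1, 74.8 and 89.0 TPM against 135, 129 and 149 TPM, a log2 difference of -0.71 (adjusted p = 0.0355, limma). On the ground Atp2a2 read 170, 150 and 145 TPM in the gastrocnemius and 91.5, 187 and 203 TPM in the quadriceps, a log2 difference of 0.03. The difference between both contrasts had an unadjusted p of 0.0469 by limma and did not pass adjustment. Mybpc1, the slow myosin binding protein C, and Ckmt2, the muscle mitochondrial creatine kinase, were not called and had log2 differences of 0.42 and -0.15. The median of the slow list on the ground was 0.23. There 3 of 26 were called higher in the gastrocnemius, against 54 of the 10481 genes tested.

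Genes of excitation-contraction coupling and calcium handling mostly had lower values in the gastrocnemius. The log2 difference was negative for 27 of 28 tested genes, against 66.7% of all genes, and their median was -0.32. Of the 28, 2 were called lower, against 1.17% of all genes tested. Both called genes encode small membrane peptides that restrain the calcium pump of the sarcoplasmic reticulum. Sln, sarcolipin, read 0.339, 0.570 and 0.696 TPM in the gastrocnemius against 4.09, 5.13 and 3.51 TPM in the quadriceps, a log2 difference of -1.77 (SE 0.22, adjusted p = 0.0411, limma). Mrln, myoregulin, read 42.5, 46.5 and 44.0 TPM against 68.4, 71.3 and 86.9 TPM, a log2 difference of -0.75 (adjusted p = 0.0442, limma). Ryr1, the calcium release channel, was at 1237 ± 46.5 and 1260 ± 67.5 TPM and its groups overlapped. Trdn, which anchors the release complex, had a log2 difference of -0.51 and was not called.

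On the atrophy and growth list 1 of 44 tested genes was called, against 1.60% of all genes tested. This was Mstn, myostatin, the secreted brake on muscle growth. It read 24.2, 24.9 and 27.3 TPM in the gastrocnemius and 45.3, 59.6 and 46.3 TPM in the quadriceps, 1.98-fold higher in the quadriceps by the ratio of means (log2 difference -0.95, SE 0.12, adjusted p = 0.0411, limma). On the ground it was called in the same direction with -0.69. Sqstm1, an autophagy receptor, and Nedd4, a ubiquitin ligase, were the most abundant members not called and had log2 differences of -0.26 and -0.28.

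Positional genes included a T-box and a homeobox gene among the calls. Of 75 listed limb and positional identity genes, 31 were tested and 2 were called, against 1.60% of all genes tested. Tbx1, a T-box factor, read 2.82, 2.94 and 3.99 TPM in the gastrocnemius and 10.8, 8.94 and 10.2 TPM in the quadriceps, a log2 difference of -1.38 (adjusted p = 0.0326, limma). Barx2, a homeobox factor of myogenic cells, read 10.7, 7.06 and 8.68 TPM against 3.63, 3.003 and 2.77 TPM, a log2 difference of 1.24 (adjusted p = 0.0355, limma). Both had the same direction and were called on the ground, with -1.67 for Tbx1 and 1.42 for Barx2. Tbx15 and Hoxc10, the most abundant members, had log2 differences of -0.51 and -0.30 and were not called.

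Several programmes gave no calls in flight. Of all genes tested 1.60% were called, a share at which lists of this size hold few or no calls. The counts were 0 of 36 for glycolysis and glycogen, 0 of 36 for fatty acid uptake and oxidation, 0 of 28 for oxidative programme regulators, 0 of 55 for splicing regulators, 0 of 22 for clock genes and 0 of 21 for myogenic and denervation-response genes. At an unadjusted limma p under 0.05 these lists held 15, 11, 9, 13, 4 and 4 genes, against 3020 of the 10481 genes tested. Their medians ran from -0.16 to 0.01. Examples are Gapdh and Pygm of glycolysis and glycogen breakdown at -0.17 and -0.15, Acadm and Pdk4 of fat oxidation and its control at -0.09 and 0.23, and the splicing factors Hnrnpa2b1 and Mbnl1 at -0.36 and -0.17. Mb, myoglobin, and Mef2c, a muscle transcription factor, were at 0.39 and -0.22. Among the remaining list members, Myf6 and Scn4a were at -0.40 and -0.17 and the clock-controlled factors Tef and Nr1d2 at 0.21 and -0.16. Of the giant sarcomere and cytoskeletal proteins, 1 of 27 was called, against 1.60% of all genes tested. It was Ank1, whose small muscle form lies at the sarcoplasmic reticulum, and which averaged 420 ± 7.14 and 662 ± 63.8 TPM. Ttn was at 9015 ± 180 and 8392 ± 81.0 TPM and Neb at 4488 ± 207 and 5414 ± 175 TPM, neither called.

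For markers of other tissue in the samples, the counts called in flight were 0 of 8 for tendon, 0 of 15 for endothelium, 0 of 17 for adipocytes and 0 of 3 for bone and cartilage. Over all genes tested 1.60% were called, a share at which lists this small hold few or no calls. At an unadjusted limma p under 0.05 these lists held 2, 4, 1 and 3 genes, against 3020 of the 10481 genes tested. The collagen genes Col1a1 and Col1a2 had log2 differences of 0.09 and -0.03, and the endothelial genes Aqp1 and Egfl7 -0.06 and 0.39. Spp1 and Alpl, genes of mineralising tissue, had 1.33 (adjusted p = 0.0515, limma) and 0.90. The adipocyte list stood apart between conditions, with a median of -0.03 in flight and -0.92 on the ground. There 7 of 17 were called higher in the quadriceps, against 144 of the 10481 genes tested. Fabp4, the adipocyte fatty acid binding protein, averaged 149 ± 5.63 and 175 ± 28.8 TPM in flight, whereas on the ground it read 167, 153 and 141 TPM in the gastrocnemius and 392, 251 and 234 TPM in the quadriceps. Car3, a carbonic anhydrase of fat and slow fibres, had a log2 difference of 0.50 in flight. Of the 17 adipocyte genes, 9 had an unadjusted interaction p under 0.05 by limma, against 534 of the 10481 genes tested, and 0 passed adjustment.

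**Figure D2:**
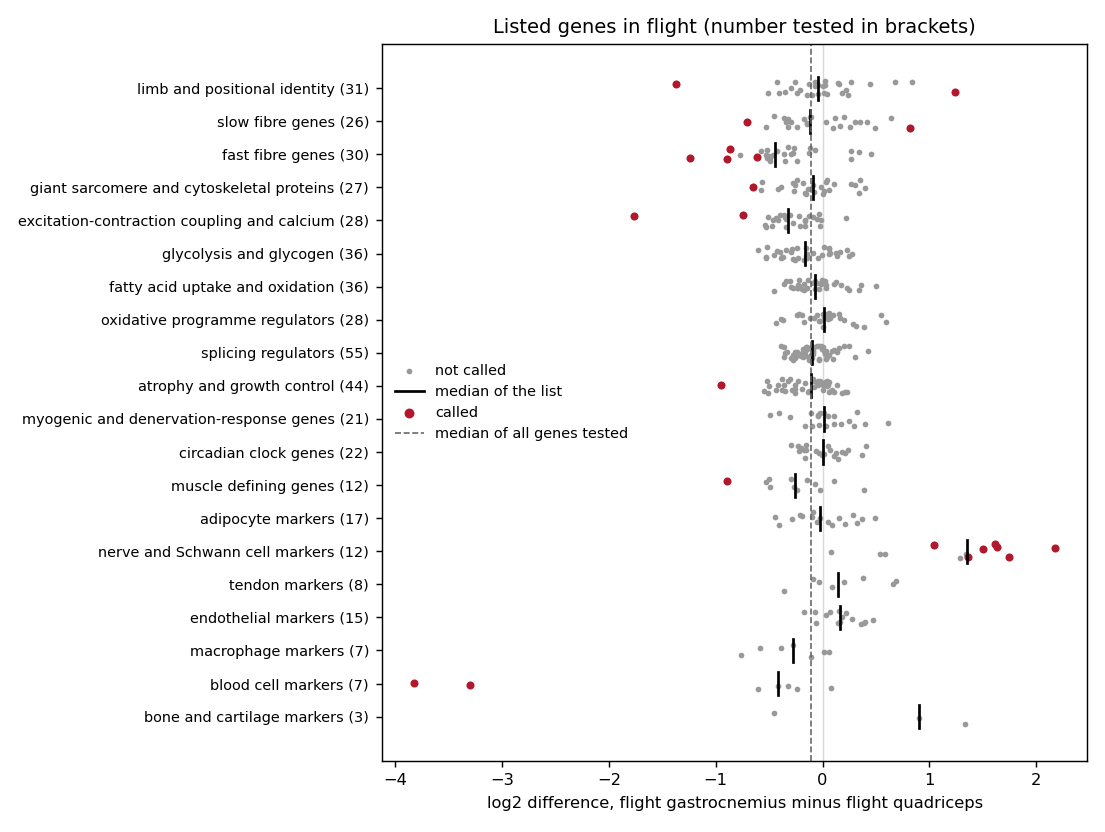
log2 difference of flight gastrocnemius minus flight quadriceps on the x axis for every tested member of the 20 gene lists, with called genes in red, a black bar at the median of each list and a dashed line at the median of all genes tested (-0.11). The nerve and Schwann cell markers, with a median of 1.35, lie to the right of the dashed line, and the fast fibre genes, with a median of -0.44, mostly to its left.

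Some groups were picked out only after the values had been seen. Of 82 protein-coding genes of cytosolic ribosomal proteins tested, 14 were called lower in the gastrocnemius and 0 higher, with a median log2 difference of -0.37 and -0.34 on the ground. Of 78 protein-coding nuclear genes of oxidative phosphorylation, 4 were called lower and 0 higher, with a median of -0.24. Over all genes tested, 1.17% were called lower in the gastrocnemius. The 13 messenger RNAs of the mitochondrial genome had a median of 0.18, and 1 was called higher and 1, mt-Nd3, lower. Of the 13, 9 were higher in the gastrocnemius in every mouse, against 1268 of the 10481 genes tested. The pseudogenes Gm12895 and Gm12896 on chromosome 4 share 99.0% of their 31-base words and were listed with identical TPM. Together they held 9.48%, 9.77% and 11.3% of the nominal TPM total in the flight gastrocnemius and 5.59%, 5.45% and 5.68% in the flight quadriceps. On the ground they held 13.9% to 14.1% and 6.43% to 8.29%. A share of this size lowers the TPM of the other genes in a library, and its part in the shift of the median was not tested.

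Most differences between the flown muscles were also present between the ground muscles. Of the 168 genes called in flight, 163 (97.0%) had the same sign on the ground, against 75.4% of all genes tested, and 144 had an unadjusted ground p under 0.05 by limma. On the ground 198 genes (1.89%) were called, of which 67 were also called in flight, 39.9% of the flight calls and 33.8% of the ground calls, all with the same sign. Leaving out a ground mouse brought the ground count to 2 without M02, 0 without M03 and 0 without M08. The M08 ground quadriceps library had 18172 genes with TPM over 0, whereas the other 11 libraries had 20291 to 21265. The median size of the log2 difference of the 168 genes, which were chosen by their flight values, was 0.82 in flight and 0.65 on the ground. Across all genes, which are not replicates and share their libraries, the flight and ground differences correlated with a Pearson r of 0.55. The test of the difference between both contrasts called 0 of 10481 genes (0.00%) by limma, with a smallest adjusted p of 0.503 and 534 genes at an unadjusted p under 0.05. S100a9 had an interaction log2 difference of -2.53 (unadjusted p = 0.00451 by limma), which did not pass adjustment.

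**Figure D3:**
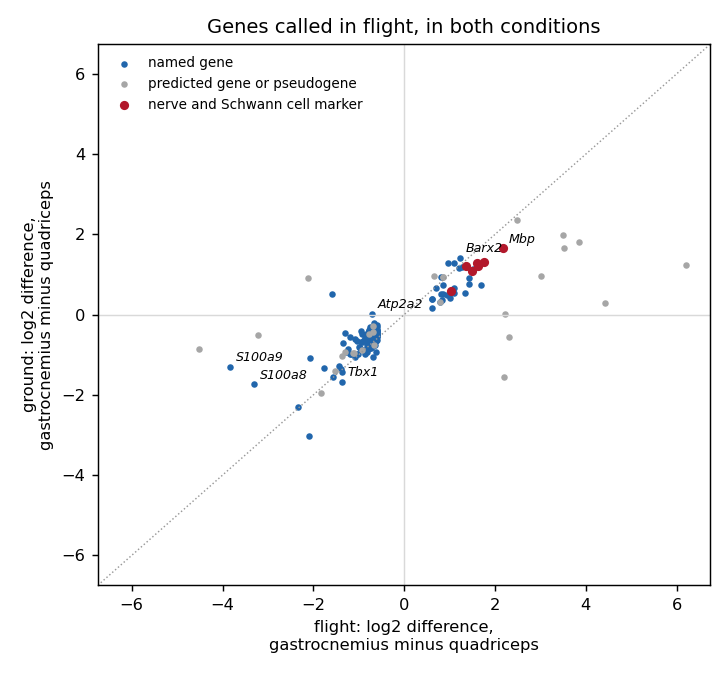
log2 difference of gastrocnemius minus quadriceps in flight (x axis) and on the ground (y axis) for the 168 genes called in flight, each point a gene, with the dotted line where both are equal. Of the 168 points 163 have the same sign on both axes, and the nerve and Schwann cell markers in red lie in the upper right.

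Splicing was read as percent spliced in (PSI), the share of transcripts that include an exon, from junction reads divided by the effective length of each form. A skipped exon (SE) event is defined by the exon and its neighbours, so the same exon with other neighbours is another event with its own PSI. In a mutually exclusive exon (MXE) event PSI counts the exon nearer the transcript start against the other exon of the pair. A transcript that holds both exons can add reads to both sides, and PSI is then not a share of transcripts. The tables name no samples, so samples are given by their place in the list and were not paired. Of 1750 SE and 653 MXE events present in both muscles' tables, 1506 and 598 passed the filters on reads and PSI. These 2104 events lay in 1048 genes, with a median of 37 junction reads per event and sample. Junction reads over all matched events ran from 974045 to 1181417 per flight sample.

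In flight, 105 of 2104 events (4.99%) were called between the muscles at an adjusted limma p under 0.05 and a PSI difference over 5 points, 71 SE and 34 MXE, in 13 genes. Inclusion was higher in the gastrocnemius for 80 and lower for 25. All 105 called events had groups without overlap, against 20.6% of the events tested, a share that calling by p nearly fixes. Of the 105, 84 belonged to titin (Ttn), which also held 261 of the events tested, and the other 21 were in 12 genes, among them Tnnt3, Neb, Ryr1, Dysf, Ank3, Selenow, Cat, Rps24, Atp5o and St8sia5. None of these 13 genes was called for expression. Left-out samples gave 69 to 109 called events, with 69 without the first gastrocnemius sample.

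The exons on which these events turn are given as joined in the event, with the alternative exon in capitals. In lower case are the last 15 bases of the event's exon before it and the first 15 of the event's exon after it. These neighbours need not be adjacent to it in the transcript named. For Ttn exon 143 the exon after it in the event is exon 148 of Ttn-203, and each Selenow exon is given without the other. Sequences are from the GENCODE vM21 transcripts on GRCm38 and all exons shown are coding. Their lengths are multiples of 3, so each adds or removes whole codons. The Ttn exon (84 bases, exon 143 of Ttn-203, chr2:76847113-76847196, minus strand) had the smallest p of all events, and Ryr1 (18 bases, exon 84 of Ryr1-208, chr7:29044919-29044936, minus strand), Tnnt3 (15 bases, exon 6 of Tnnt3-226, chr7:142504250-142504264, plus strand) and Ank3 (63 bases, exon 24 of Ank3-247, chr10:69904448-69904510, plus strand) follow. For Selenow both exons of the MXE event are given (54 and 75 bases, exons 3 and 4 of Selenow-201, chr7:15920305-15920358 and chr7:15920043-15920117, minus strand). Selenow-201 itself holds both of them.
Ttn exon 143: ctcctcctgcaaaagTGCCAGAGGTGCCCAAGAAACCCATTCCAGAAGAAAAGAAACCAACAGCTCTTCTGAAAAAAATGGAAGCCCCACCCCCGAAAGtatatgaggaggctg
Ryr1 exon 84: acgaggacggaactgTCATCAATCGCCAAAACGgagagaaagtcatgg
Tnnt3 exon 6: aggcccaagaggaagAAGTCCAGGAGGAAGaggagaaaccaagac
Ank3 exon 24: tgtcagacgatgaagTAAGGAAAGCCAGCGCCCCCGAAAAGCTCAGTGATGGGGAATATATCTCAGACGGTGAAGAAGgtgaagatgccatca
Selenow exon 3: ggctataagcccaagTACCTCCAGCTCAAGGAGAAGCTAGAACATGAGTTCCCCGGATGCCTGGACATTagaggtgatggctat
Selenow exon 4: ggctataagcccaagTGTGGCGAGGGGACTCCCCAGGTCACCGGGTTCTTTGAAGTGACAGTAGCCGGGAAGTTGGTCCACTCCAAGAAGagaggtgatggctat

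Titin transcripts of the flown gastrocnemius kept more of their alternative exons than those of the flown quadriceps. Of the 55 called SE events of titin, 54 had higher inclusion in the gastrocnemius. They involve 25 distinct exons of the 48 with a tested SE event, all with lengths that are multiples of 3, between exon 49 and exon 202 of Ttn-203. For 24 of the 25 exons every called event was higher in the gastrocnemius. The exception, exon 129 (chr2:76853605-76853688), had 2 called events in opposite directions, with the lower one resting on 11 to 25 reads per sample. When each exon was represented by its most read event, whatever the outcome, 46 of 48 exons had a higher mean PSI in the gastrocnemius, 27 by more than 5 points, and 18 were called. The exons lie in the same transcripts, and these counts are not independent of each other.

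The exon with the smallest p (exon 143) had PSI of 99.0%, 98.7% and 99.1% in the gastrocnemius and 86.2%, 87.0% and 84.8% in the quadriceps, from 402 to 1677 reads, with an adjusted p of 2.28e-05 by limma. In that event the gastrocnemius samples included it almost always, but its PSI depends on the neighbours. In its most read event, with 1592 to 3895 reads, it was at 42.9%, 45.4% and 35.8% in the gastrocnemius and 33.9%, 26.05% and 31.3% in the quadriceps and was not called (adjusted p = 0.145, limma). The largest difference was in exon 170 (chr2:76832101-76832184), with 86.6%, 84.7% and 77.6% in the gastrocnemius and 15.6%, 17.99% and 22.5% in the quadriceps in the event called with 328 to 488 reads, a difference of 64.3 points (adjusted p = 4.42e-05, limma). In its most read event, with other neighbours, the same exon had 21.6% and 4.94% on average, so its level depends on which transcripts are counted while its direction was the same. Exon 135 (chr2:76850306-76850380) was at 74.0% ± 5.45 (SD, n = 3) in the gastrocnemius and 26.3% ± 6.41 in the quadriceps.

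Further upstream, exon 49 (chr2:76901841-76902122) had PSI of 94.8%, 82.7% and 95.0% in the gastrocnemius and 30.99%, 62.0% and 64.3% in the quadriceps. Exon 66 (chr2:76894624-76894902) had 97.1%, 87.5% and 96.4% against 45.4%, 73.9% and 74.3%. Both exons were lowest in the same sample of each group, the second of the gastrocnemius and the first of the quadriceps. Exon 191 (chr2:76827483-76827560), toward the other end of the alternative stretch, had 57.3%, 35.6% and 48.1% against 8.92%, 6.09% and 6.43%. On the ground 73 of the 84 called titin events were also called and 83 had the same direction. The 29 called MXE events of titin were split, with 18 favouring the first exon in the gastrocnemius and 11 the second.

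**Figure D4:**
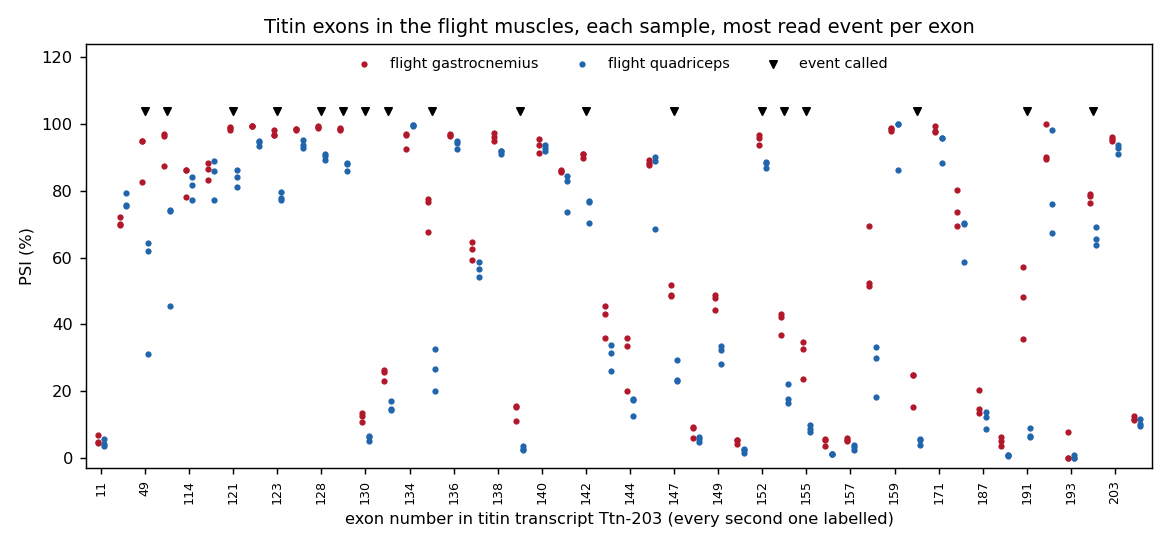
PSI in percent (y axis) of the 48 titin exons with a tested skipped-exon event, in transcript order (x axis, exon numbers of Ttn-203), for each of the 3 gastrocnemius (red) and 3 quadriceps (blue) flight samples, using the most read event of each exon, with triangles above the 18 events called. The red points of exons 49, 135, 147 and 191 lie above the blue ones by 24.5 to 47.7 points on average.

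Troponin T and the calcium release channel were spliced in the other direction. Tnnt3 encodes fast troponin T, whose N-terminal part is varied by several very short exons, and 4 of its 4 called SE events were lower in the gastrocnemius. Exon 6 was included in 61.5%, 59.9% and 63.7% of the gastrocnemius and 82.0%, 80.6% and 81.7% of the quadriceps transcripts, a difference of -19.7 points (488 to 1047 reads, adjusted p = 0.0047, limma). Exon 7 (12 bases, chr7:142505288-142505299) was at 48.4% ± 3.57 and 68.8% ± 3.47 in 1 event and at 78.2% ± 1.14 and 87.0% ± 2.38 in another. Exon 9 (39 bases, chr7:142507750-142507788) was at 4.11% ± 1.26 and 15.1% ± 3.20. On the ground exon 6 differed by -11.8 points in the same direction without passing the threshold (adjusted p = 0.0983, limma).

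In Ryr1, the 18-base exon was included in 78.0%, 78.7% and 74.4% of gastrocnemius and 90.5%, 91.0% and 90.4% of quadriceps transcripts, from 1126 to 2599 reads, a difference of -13.6 points (adjusted p = 0.00112, limma). The ground difference of -11.3 points was called too (adjusted p = 0.00785, limma). While the isoforms differed, the expression of Ryr1 had a log2 difference of -0.03 (SE 0.08) in flight.

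Further events lay in a thin filament protein and in membrane-linked proteins. Neb, nebulin, which lines the thin filament, had higher inclusion of exon 138 (chr2:52165167-52165277) in the gastrocnemius, at 42.4% ± 2.04 and 29.6% ± 3.78, and of exon 146, at 27.7% ± 5.66 and 11.9% ± 3.25. Of its 67 tested events 4 (5.97%) were called, against 4.99% of all events and 1.14% of those outside titin. Ank3, ankyrin-G, had exon 24 at 7.94%, 8.33% and 11.5% in the gastrocnemius and 0%, 0.885% and 1.72% in the quadriceps, from 34 to 59 reads. The value of 0% comes from 57 reads and allows up to 2.703% inclusion by counting error alone. Dysf, dysferlin, which reseals the muscle membrane, had exon 6 at 21.9% ± 5.50 and 4.56% ± 0.491.

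Among enzymes and other proteins, Selenow, a small selenoprotein abundant in muscle, had an MXE event that set exon 3 against exon 4. Its PSI was 25.0%, 24.2% and 24.7% in the gastrocnemius and 15.05%, 10.7% and 14.3% in the quadriceps. Both exons lie in Selenow-201, so these values are not the share of transcripts with exon 3. The 20-base exon 6 of Rps24, a ribosomal protein, is not coding in Rps24-205 and was at 94.2%, 96.1% and 91.4% in the gastrocnemius and 100% in all 3 quadriceps samples, where 66 to 98 reads allow up to 4.26% to 6.28% skipping by counting error alone. Those limits overlap the gastrocnemius values. In Neb the MXE event with the smallest p had its first exon at 33.5% ± 1.90 and 24.1% ± 0.993.

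Across called events, 101 of 105 had the same direction on the ground, against 59.0% of all tested events, and 75 were also called there. On the ground 125 of 2044 events (6.12%) were called. Outside titin the overlap was smaller, since 18 of 21 events had the same direction on the ground but 2 were called there, Ryr1 and the Neb event of exon 142. Distinct called SE exons had lengths that are multiples of 3 in 38 of 40 cases (95.0%), against 65.4% of the 1303 distinct SE exons tested. Without titin the shares were 13 of 15 (86.7%) and 64.1%.

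The difference between the flight and the ground contrast was called for 3 of 1869 events (0.161%) by limma. Both titin events were MXE events that set exon 127 (chr2:76854150-76854218) or exon 128 (chr2:76853851-76853928) against exon 171 (chr2:76831788-76831874). All of these exons lie in Ttn-203. In its most read SE event in flight, exon 128 averaged 99.0% in the gastrocnemius and 90.3% in the quadriceps. Exon 171 averaged 98.3% and 93.4% in its SE event. A transcript can thus hold both exons, and the PSI of these MXE events is not a share of transcripts. With exon 127, PSI was 79.4%, 70.4% and 77.6% in the flight gastrocnemius and 42.8%, 44.1% and 37.7% in the flight quadriceps, against 54.7%, 42.8% and 52.2% and 46.8%, 45.4% and 42.1% on the ground. With exon 128 it was 87.9%, 80.0% and 88.2% against 56.3%, 58.5% and 59.1% in flight, and 66.3%, 64.9% and 64.7% against 56.2%, 56.8% and 53.0% on the ground. The flight gastrocnemius samples were the highest in both events. Both share exon 171, so they are not independent.

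The other event was exon 6 of Cat, catalase, which breaks down hydrogen peroxide (chr2:103470299-103470424). In flight it was included in 100% of transcripts in all 3 gastrocnemius samples, from 42 to 71 reads, and in 93.2%, 94.4% and 92.9% in the quadriceps, while on the ground the values were 94.4%, 92.0% and 97.0% against 97.7%, 100% and 100%. The 3 flight gastrocnemius samples allow up to 8.11% to 13.3% skipping by counting error alone, which covers the skipping in the quadriceps samples. Leaving out 1 of the 12 samples at a time, the 3 calls were reduced to 0 in 10 of 12 cases.

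**Figure D5:**
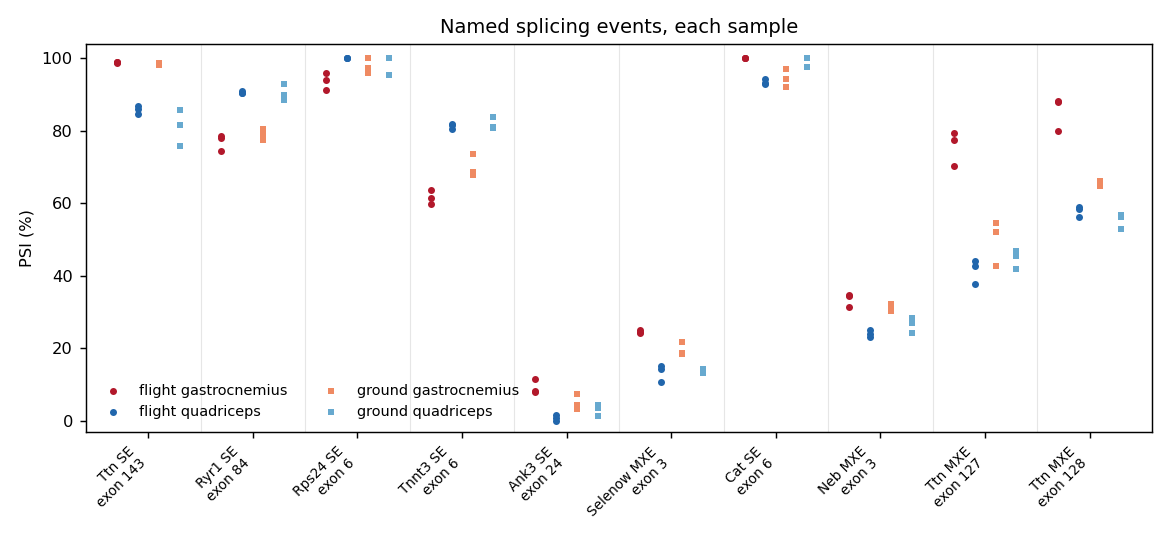
PSI in percent (y axis) of 10 named splicing events (x axis, gene, event type and exon number), with a point for each sample and colours and shapes for the 4 groups. The red and dark blue points of the flight muscles do not overlap in any event, and in the 2 titin MXE events the flight gastrocnemius lies above the other 3 groups.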

How the data were processed

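RNA from 2 muscles of 6 mice was sequenced as stranded, single-end libraries of 50 bases. The authors estimated transcript abundance as TPM with kallisto 0.46.0 and summed it per gene with tximport. They aligned reads with STAR 2.7.1a to GRCm38 (mm10) and counted splice junctions with rMATS-turbo. The deposited splicing tables hold whole junction read counts, PSI fractions and form lengths per sample, and their p-values, FDR and PSI differences of flight against ground were not used. The authors ran DESeq2 1.26.0 on counts, which were not used here.

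TPM was tested as log2(TPM + 1) with limma 3.58.1 in R 4.3.3 (lmFit, eBayes with trend), with mouse as a block because the labels give both muscles the same mouse numbers. Genes above 5 TPM in at least 1 library were kept. The deviations of same-mouse flight libraries from their group means correlated with r of 0.33, 0.18 and -0.12. For flight libraries of different mice r ran from -0.32 to 0.18, which overlaps the same-mouse values. Events were matched between tables by gene and all exon coordinates and kept where each muscle averaged more than 10 junction reads. Events with every sample at a PSI of 0.05 or less, or every sample at 0.95 or more, were dropped. Reads of each form, plus 0.5, were divided by form length, and the log2 ratio of both forms was tested with limma without pairing. P-values are two-sided with Benjamini-Hochberg adjustment. Both procedures were tested on simulated data. With no change simulated, the limma tests called 0 genes and 0 events. Of 200 genes changed by a log2 of 1 or 2, the flight test recovered 57.5% and 89.5%. Of 200 events changed by as much, the flight test recovered 8.5% and 39% at an adjusted p under 0.05. The interaction test for splicing recovered 0.5% and 21%, so splicing changes of these sizes were mostly missed in the simulation. Limits for a form without reads assume 3 counts, scaled by form length, and cover counting error only.

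Named genes were the 10 largest called differences in each direction without symbols of predicted genes and pseudogenes, and for each list up to 4 called members by p in each direction and the 2 most abundant members not called. Named events were the smallest p of 10 genes, up to 5 called genes of fibre, sarcomere, calcium and splicing lists, and up to 5 interaction calls. The samples, lists and rules were chosen with earlier results of these data known. Some named items are not reported here. Alternatives are described at the end.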

Additional observations from a re-analysis of the deposited data

Results flagged for a closer look

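Across the muscles' flight and ground contrasts, 3 splicing events had a difference of differences past the adjusted limma threshold. In the flight muscles the PSI difference minus that on the ground was 29.2 points for the titin MXE event with exon 127 (adjusted p = 0.0382), 17.4 points for the titin MXE event with exon 128 (adjusted p = 0.0469) and 11.3 points for exon 6 of Cat (adjusted p = 0.0469), all by limma. The Cat event moved in opposite directions, 6.49 points in flight and -4.77 points on the ground. Both titin events moved the same way in flight and on the ground, by 34.3 and 5.10 points with exon 127 and by 27.4 and 9.97 points with exon 128.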

How the results depend on the processing

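For flight genes, the 168 calls became 109 with a pseudocount of 0.1, 0 without a filter on low values (24433 genes tested, 3917 at an unadjusted limma p under 0.05), 267 with TPM above 5 in every library, 54 after median-ratio rescaling, 12 without the variance trend and 350 with all 12 libraries in the same fit. Without the replicate block, that is without pairing by mouse, 174 genes were called, of which 127 were also called with it. Leaving out a mouse gave 1 to 48 calls. For ground genes, the 198 calls became 0 without a filter, 87 after rescaling, 15 without the trend, 433 without the fold threshold, 335 with all 12 libraries, and 0 to 2 without a mouse; without the replicate block there were 232. The interaction of muscle and flight called 0 genes with and without the replicate block, 2 genes without a filter and 0 to 1 without a mouse. The cause of these moves was not tested, beyond the number of genes and mice that each setting leaves.

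For splicing, the 105 flight events became 174 when weighted by junction reads and 69 to 109 with a sample left out. Ground events ranged from 90 to 123 with a sample left out, against 125. The 3 interaction events became 6 when weighted, 1 with a mean of over 20 reads and 1 with over 50, and 0 to 6 with a sample left out. No paired analysis was possible for splicing because the tables name no samples.

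Of the 71 named genes, those whose direction reversed were not called. After rescaling, the log2 differences were 0.0617 for Ryr1, 0.0516 for Col1a2 and 0.0303 for Aqp1. Without M11 they were 0.023 for Col1a2 and -0.002 for Cd74. Without M12 they were 0.0515 for Acadm, -0.18 for Col1a1 and -0.10 for Cd74. Without M20 they were 0.0425 for Ryr1, 0.0604 for Col1a2 and 0.0204 for Hba-a2. Of the 71, 33 were called in the main test. Of these 33 calls, 28 were lost without the trend, all 33 without a filter, 14 after rescaling, and 24 to 33 without a mouse. No named splicing event reversed, but of the 12, 4 lost their call under the quasi-binomial model and 1 to 6 with a sample left out, with 6 without the third flight gastrocnemius sample. Intronic sequence around exons was not analysed here.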
